A study of Mus musculus with 24 samples.

Results

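The genes described here encode the enzymes that make, balance and restrain the polyamines: Odc1, Srm, Sms, Amd1, Sat1, Oaz1, Oaz2 and Azin1. They were taken by name, and each was read from Affymetrix probe sets that the array's probe table assigns to that symbol alone, the brightest over all arrays standing for the gene. Of the 8 genes, 6 had such a probe set, and all 6 were above the filter on dim signals, among 14318 genes tested in all. Sms was on 3 probe sets that also carry the symbol of a pseudogene, Sms-ps, so it was not read. Amd1 was not in the probe table and is named only.

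The study asked what the transcription factor NFATc1 contributes to the response of B cells to their antigen receptor. Splenic B cells came from C57BL/6 mice aged 6 to 8 weeks and were stimulated with anti-IgM, an antibody that cross-links the receptor, for 0, 3, 8 or 16 h, with beads used to enrich B cells. The KO mice carried Nfatc1 alleles with exon 3 flanked by loxP sites and the mb1-cre (Cd79a) line, which deletes that exon in the B lineage from its early stages, so a KO sample may still hold undeleted cells of other lineages. The WT samples are described only as control mice, and whether they carried Cre or the floxed allele is not given. Each of the 8 groups of genotype and time had 3 biological replicates, which made 24 arrays of total RNA. Whether a replicate was 1 mouse or a pool is not given.

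Polyamines are small positively charged molecules that bind RNA and DNA and are needed for translation and cell growth. Ornithine decarboxylase, encoded by Odc1, turns ornithine into putrescine, and spermidine synthase (Srm) and spermine synthase (Sms) add aminopropyl groups that come from S-adenosylmethionine through the decarboxylase encoded by Amd1. Antizymes (Oaz1, Oaz2) bind ornithine decarboxylase and send it to the proteasome, antizyme inhibitor (Azin1) resembles the enzyme and captures antizyme, and the acetyltransferase encoded by Sat1 marks spermidine and spermine for export or breakdown. Much of this control acts on protein, since antizyme is made through a frameshift that polyamines promote, and arrays of RNA do not see it. Odc1 is a textbook target of MYC, a factor that pairs with MAX on the sequence CACGTG and its variants.

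Because Odc1 and Oaz1 were the members that rose and had an entry in the RefSeq promoter table (build GRCm38.p6), the bases before their start sites are shown, both on the plus strand and read 5′ to 3′. Capitals mark CACGCG or its reverse complement CGCGTG, a variant of the MYC site that was searched on both strands and shares no full match with CACGTG, which is its own reverse complement. The Odc1 run is chr12:17544623-17544807 and ends before the first base annotated to the gene. The Oaz1 run is chr10:80826406-80826655.
Odc1: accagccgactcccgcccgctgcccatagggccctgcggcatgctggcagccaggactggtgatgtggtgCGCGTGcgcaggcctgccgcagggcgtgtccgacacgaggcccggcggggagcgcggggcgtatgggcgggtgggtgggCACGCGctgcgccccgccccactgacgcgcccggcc
Oaz1: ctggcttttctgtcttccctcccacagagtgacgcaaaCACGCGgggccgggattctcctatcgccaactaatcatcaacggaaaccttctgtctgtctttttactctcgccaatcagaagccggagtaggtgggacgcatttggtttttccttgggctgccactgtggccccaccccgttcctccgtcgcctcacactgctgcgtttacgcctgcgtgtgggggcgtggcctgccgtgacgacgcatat
The variant began 180 and 101 bases before the listed start of Odc1, which lies past the end of its printed run of 185 bases. It began 212 bases before the listed start of Oaz1. Neither gene had CACGTG in the 250 bases before its listed start, and bases past that start were not searched. Among 32851 promoters in the table, such windows of 250 bases held CACGTG in 6.02% and the variant on either strand in 7.62%. Within the 250 bases before their starts, Amd1, Sat1 and Oaz2 had neither motif, and Sms had CACGTG before 1 listed start and the variant before the other. Srm and Azin1 are named only. A match of letters is a description of the sequence and says nothing of binding in these cells.

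The 24 arrays shared the same trimmed mean signal as deposited, and no pair held identical values (the correlation between arrays over all probe sets ranged from 0.863 to 0.953). The replicate 2 arrays of WT, 4 in all, stood apart from the other 20 in sex-linked genes: Xist was between 6.17 and 6.62 on them and at least 13.27 on the others. The Y-linked Eif2s3y was between 10.96 and 11.50 on them and at most 5.13 on the others, and Y-linked Kdm5d and Uty were higher on them too. This is the pattern of male cells, though the labels give no sex. Only WT held arrays of this pattern, so it was not balanced between the genotypes. KO replicate 2 at 8 and 16 h had the highest background, taken here as the 40th percentile of an array's log2 signals (6.23 and 6.42). B cell markers were present on every array, with 7 of 7 genes on the array above the 40th percentile everywhere. Their summed log2 level was between 16.45 and 16.79 at 0 h and between 14.97 and 15.72 after stimulation. Markers of other cells were also present. In WT the summed macrophage level (6 genes, 4 of them above the percentile on all arrays) ran from 12.10 to 13.45 at 0 h and from 10.71 to 12.61 at 3 h. In KO it ran from 11.99 to 13.04 at 0 h, 10.91 to 11.61 at 3 h and 11.66 to 13.23 at 16 h. Each level is a sum of linear signals, so the brightest gene weighs most. The brightest macrophage gene tested was Lyz2, with WT means of 12.60 at 0 h and 10.90 at 3 h. Csf1r was lower at 3 h as well. Cd14 was higher then, at 9.07 beside 7.70 in WT and 8.10 beside 5.99 in KO. Adgre1 was higher at 16 h than at 0 h, at 9.07 beside 8.09 in WT and 10.25 beside 8.10 in KO. NK cell markers (3 genes, 1 above the percentile on all arrays) ran from 8.48 to 9.69 at 0 h and from 7.19 to 7.43 at 16 h in WT. In KO they ran from 8.28 to 10.74 and from 7.01 to 8.16. Neutrophil markers (6 genes, 1 above it on all arrays) ran from 11.44 to 11.99 at 0 h and from 9.94 to 10.16 at 16 h in WT, and in KO from 9.60 to 12.31 and from 9.22 to 12.08. The T cell level (6 genes, 2 above it on no array) in WT was 8.08 to 8.32 at 0 h and 7.83 to 8.404 at 3 h. In KO it was 8.12 to 9.18 at 0 h and 8.18 to 8.38 at 3 h. At 8 h it was 7.76 to 8.36 in WT and 7.85 to 8.03 in KO, there below all KO arrays at 0 h. The summed plasma cell level (4 genes, all above it on every array) was higher in every KO than in every WT array at 0 h (13.43 to 13.82 against 13.03 to 13.27). The same held at 3 h and 8 h, and the groups overlapped at 16 h. The genes differed: at 0 h Jchain had a mean of 12.47 in KO and 11.13 in WT, and Xbp1 12.66 and 12.57. Prdm1 was at 7.39 and 7.14, while Sdc1 was lower in KO, at 7.85 against 8.99. At 3 and 8 h both Sdc1 and Prdm1 were lower in KO. The part of other cells in the differences described next was not tested. In bulk RNA, fewer cells of a type and less RNA per cell cannot be told apart. The brightest Nfatc1 probe set was higher in KO than in WT by 0.56 on the log2 scale over the 4 times (limma, adjusted p = 1.12e-05). That p takes each array as a separate sample. On the other Nfatc1 probe sets the average difference was smaller, from 0.11 to 0.24, and none was called. Their lowest adjusted p was 0.0914 (limma, with every probe set tested on its own). The higher level in KO was thus called on the brightest probe set only. Because the place of the probe sets relative to exon 3 is not given, they do not check the deletion.

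Transcripts of the 2 enzymes read on the synthetic branch were higher in stimulated cells than at 0 h. No unstimulated culture at 3, 8 or 16 h is among the samples used here, so anti-IgM and time in culture cannot be told apart. In WT cells Odc1 rose 2.66-fold by 3 h and Srm 6.60-fold, and both were still higher at 16 h, by 2.91-fold and 6.35-fold. Azin1 rose 1.53-fold at 3 h and was back near its starting level by 8 h. Oaz1, the antizyme, was higher by 1.25-fold at 16 h. Oaz2 and Sat1 did not pass the test at any time in the fit over the 8 groups. KO cells gave calls on the same genes at the same times. A gene was called when limma's adjusted p, over all 14318 genes, was under 0.05.

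**Figure D1:**
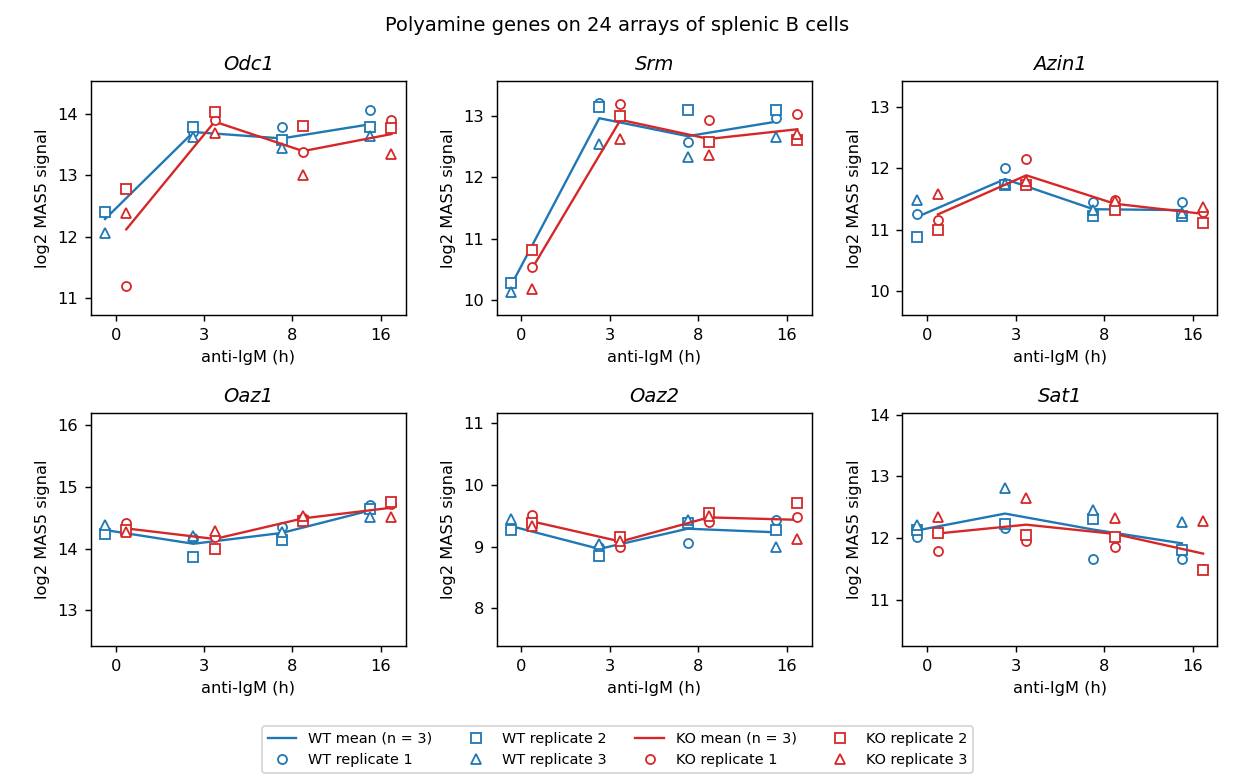
Log2 MAS5 signal (y axis) of the brightest probe set of each of the 6 genes on 24 arrays, by hours of anti-IgM (x axis, evenly spaced categories, not to scale). Each symbol is 1 array, WT in blue and KO in red, with symbol shape for replicate number, and lines join group means (n = 3). Each panel spans the same number of log2 units, and Odc1 and Srm stand above their 0 h arrays at every later time.

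Among the members, 3 of 6 were called higher in WT at 3 h, where 17.0% of all genes were called higher. The counts were 2 of 6 at 8 h, beside 17.7% of all genes, and 3 of 6 at 16 h, beside 20.9%. In KO they were 3 of 6 at 3 h (16.6% of all genes), 2 of 6 at 8 h (17.3%) and 3 of 6 at 16 h (19.4%). No member was called lower than at 0 h at any time in either genotype, where 21.3%, 15.7% and 18.5% of all genes were called lower in WT and 21.7%, 14.4% and 16.4% in KO. The median change of the 6 members in WT was 0.45, 0.07 and 0.22 on the log2 scale at 3, 8 and 16 h, while the median over all genes was -0.14, -0.04 and 0.05. In KO the members' medians were 0.39, 0.17 and 0.18 and those of all genes -0.11, 0.02 and 0.08. Scaling every array to its own median moved the median of all genes up by more than 0.1 in every one of these comparisons, for example to 0.08 at 3 h and 0.23 at 16 h in WT, and turned the split at 3 h in WT from 2439 higher and 3047 lower calls to 3253 higher and 2171 lower. Under that scaling the member counts against 0 h were the same.

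Odc1, the rate-limiting enzyme, was read by probe set 1437711_x_at. In WT its log2 signal was 12.40, 12.40 and 12.07 at 0 h in replicates 1 to 3, and 13.70, 13.78 and 13.63 at 3 h. It was 13.79, 13.57 and 13.44 at 8 h and 14.07, 13.78 and 13.64 at 16 h. Every stimulated WT array lay above every unstimulated one. In KO the values were 11.20, 12.78 and 12.38 before stimulation, then 13.90, 14.03 and 13.68, then 13.38, 13.80 and 13.00, then 13.89, 13.77 and 13.34. The groups did not overlap in KO either, but the 0 h replicates were spread over more than 1 log2 unit, with replicate 1 lowest.

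The rise of Odc1 in WT at the same times was 1.41, 1.31 and 1.54 on the log2 scale (limma, SE 0.26 for each), with adjusted p of 1.06e-04, 2.93e-04 and 3.37e-05. In KO it was 1.75, 1.27 and 1.55, with adjusted p of 7.44e-06, 4.52e-04 and 3.89e-05. The change was already this large at the first stimulated time. From 3 to 8 h and from 8 to 16 h Odc1 was not called in either genotype, and the groups of neighbouring times overlapped. The KO rise leaned on replicate 1 at 0 h: without it the changes were 1.29, 0.81 and 1.09, all still called (at 8 h, limma's adjusted p = 0.00322).

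The 3 probe sets of Odc1 all rose. On 1438761_a_at the changes at the 3 stimulated times were 1.97, 1.70 and 1.78 in WT and 2.11, 1.73 and 1.58 in KO. On the dimmest, 1427364_a_at, they were 1.52, 1.11 and 0.93 in WT and 2.04, 1.43 and 0.72 in KO, the last not called (limma, adjusted p = 0.0572 with every probe set tested on its own). The size of the late rise therefore depended on the probe set read, while its direction did not.

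Srm encodes spermidine synthase and had the widest range of the 6 genes. In WT its log2 signal on 1421260_a_at was 10.31, 10.28 and 10.13 at 0 h, 13.20, 13.14 and 12.54 at 3 h, 12.57, 13.10 and 12.34 at 8 h, and 12.96, 13.09 and 12.66 at 16 h. In KO it was 10.55, 10.82 and 10.18, then 13.19, 12.99 and 12.61, then 12.93, 12.58 and 12.36, then 13.03, 12.60 and 12.71. All 18 stimulated arrays, at 12.34 or more, were above all 6 unstimulated ones, at 10.82 or less. Replicate 3 was never the highest of its group for Srm or for Odc1.

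Against 0 h, Srm rose by 2.72, 2.43 and 2.67 in WT (limma, SE 0.21; adjusted p = 3.44e-10, 2.73e-09 and 3.51e-10). In KO the rises were 2.42, 2.11 and 2.26 (adjusted p = 2.36e-09, 3.24e-08 and 7.94e-09). These are folds of 6.60, 5.39 and 6.35 in WT and 5.33, 4.30 and 4.80 in KO. The stimulated groups could not be ordered: their means ran from 12.62 (SD 0.29) in KO at 8 h to 12.96 (SD 0.37) in WT at 3 h, and no step between stimulated times was called. For both enzymes the calls against 0 h held under all 12 other settings and after leaving out each of the 24 arrays in turn. The setting that tested every probe set on its own counted only the brightest of each gene.

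**Figure D2:**
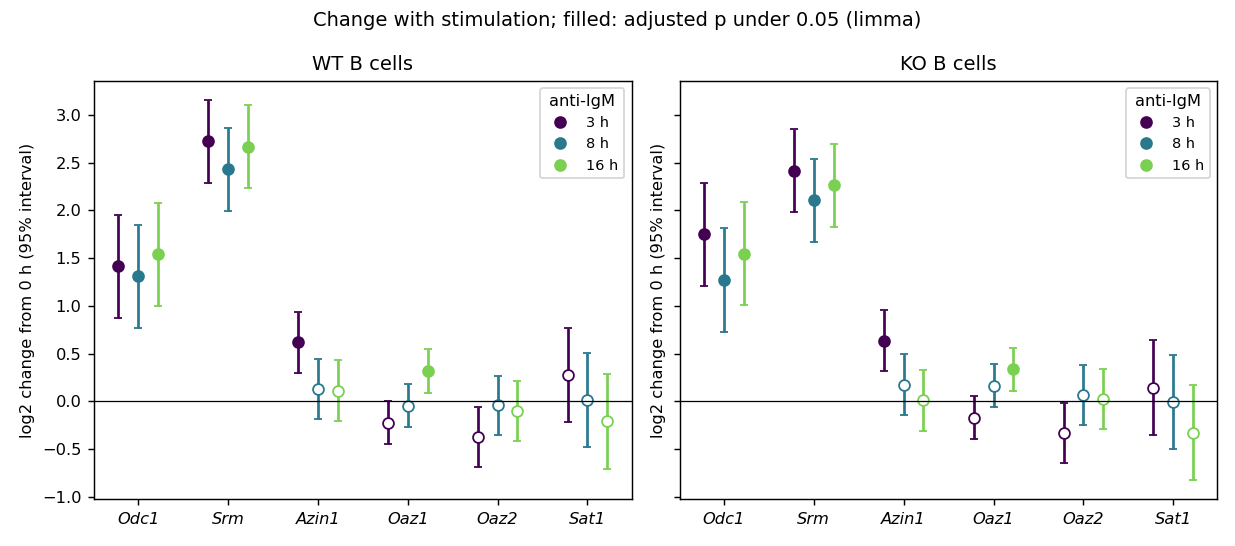
Change from 0 h on the log2 scale (y axis) of each gene (x axis) at 3, 8 and 16 h of anti-IgM, in WT (left) and KO (right), as limma estimates with 95% intervals. Filled points passed an adjusted p under 0.05: Odc1 and Srm at every time, Azin1 at 3 h and Oaz1 at 16 h in both genotypes.

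Azin1, the antizyme inhibitor, rose early and fell back. On 1450714_at the WT values were 11.25, 10.89 and 11.48 at 0 h, 12.002, 11.72 and 11.74 at 3 h, 11.45, 11.23 and 11.32 at 8 h, and 11.45, 11.22 and 11.28 at 16 h. The KO values were 11.17, 11.00 and 11.58, then 12.14, 11.72 and 11.78, then 11.48, 11.32 and 11.46, then 11.29, 11.11 and 11.38. In both genotypes all 3 arrays at 3 h were above all 3 at 0 h and all 3 at 8 h, while the arrays at 8 and 16 h overlapped those at 0 h.

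The change of Azin1 at 3 h was 0.62 in WT and 0.64 in KO (limma, SE 0.15; adjusted p = 0.00217 and 0.0017). At 8 h it was 0.13 and 0.17 and at 16 h 0.11 and 0.01, none called. The fall from 3 to 8 h was -0.49 in WT and -0.46 in KO (adjusted p = 0.031 and 0.0365), which made Azin1 the 1 of 6 members called lower over that step in each genotype, beside 5.57% of all genes in WT and 6.01% in KO. This fall was near the threshold. In WT it was lost without WT replicate 1 or 2 at 3 h or replicate 2 or 3 at 8 h (limma, adjusted p up to 0.132 with 1 array left out, and from 0.00336 to 0.206 over 12 settings). In KO it was lost without replicate 1 at 3 h or any 1 of the 3 arrays at 8 h (adjusted p up to 0.211, and from 0.00443 to 0.112 over 12 settings).

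The probe sets of Azin1 did not give 1 answer. On 1422702_at the change at 3 h was 0.15 in WT and 0.22 in KO, neither called, and at 8 h the gene was lower than at 0 h by -0.33 in WT and -0.41 in KO (limma, adjusted p = 0.0486 and 0.0138). At 16 h it was -0.05 in WT and -0.32 in KO, the latter called (adjusted p = 0.0482). On 1430984_at it was 0.07 in WT and 0.60 in KO at 3 h, neither called. When the probe sets were averaged, the rise at 3 h in WT was 0.28 and no longer called (adjusted p = 0.24), so the early rise in WT rests on the brightest probe set. The drop from 3 to 8 h was called on the second probe set too, at -0.48 in WT and -0.64 in KO (adjusted p = 0.0127 and 0.00109).

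**Figure D3:**
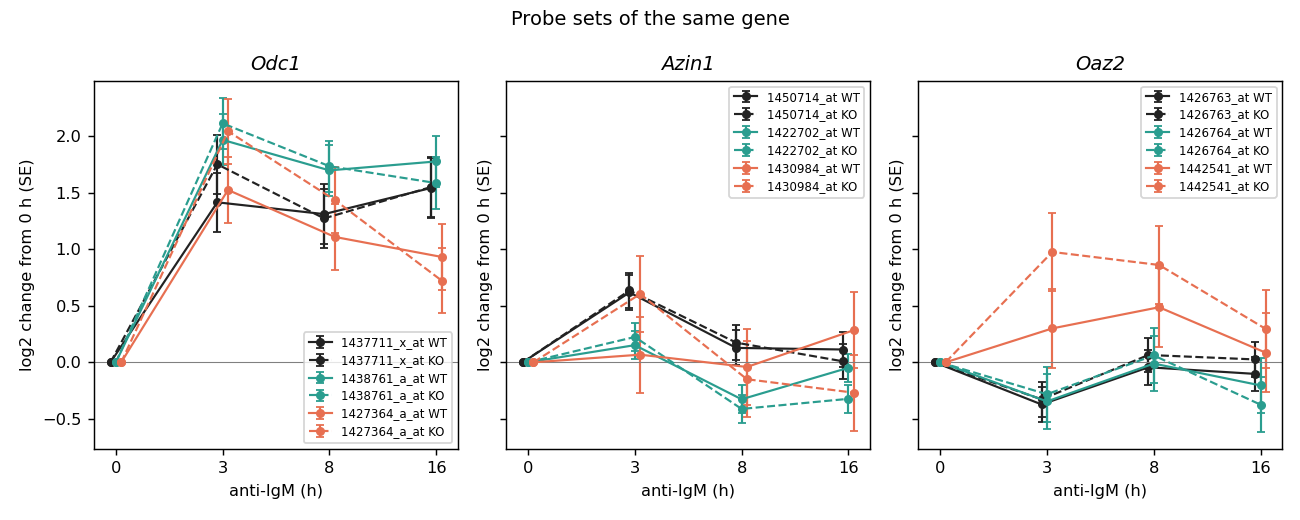
Change from 0 h on the log2 scale (y axis) by hours of anti-IgM (x axis, evenly spaced categories) for each of the 3 probe sets of Odc1, Azin1 and Oaz2, solid for WT and dashed for KO, with limma's SE as bars. The brightest probe set is in black; those of Odc1 rose together, while those of Azin1 and Oaz2 differed in sign at some times.

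Oaz1 encodes the main antizyme and was read by 1436292_a_at, a second probe set being shared with the pseudogene Oaz1-ps. Its WT values were 14.29, 14.23 and 14.38 at 0 h, 14.16, 13.87 and 14.20 at 3 h, 14.36, 14.14 and 14.27 at 8 h, and 14.71, 14.64 and 14.50 at 16 h. Its KO values were 14.41, 14.31 and 14.26, then 14.19, 13.99 and 14.29, then 14.49, 14.45 and 14.53, then 14.73, 14.75 and 14.51. The arrays at 16 h were above those at 0 h in both genotypes, and the range over all 24 arrays was under 1 log2 unit.

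At 16 h Oaz1 was higher than at 0 h by 0.32 in WT and 0.34 in KO (limma, SE 0.11; adjusted p = 0.0225 and 0.0177). The lowest means were at 3 h, where the change was -0.22 in WT and -0.17 in KO, not called (adjusted p = 0.115 and 0.245). The upward steps called were in different intervals. In WT the step from 8 to 16 h was called, at 0.37 (adjusted p = 0.0404), the 1 of 6 members called higher there beside 3.83% of all genes. In KO the step from 3 to 8 h was called, at 0.34 (adjusted p = 0.0328), the 1 of 6 members called higher beside 13.2% of all genes. No member was called between 8 and 16 h in KO (limma, 0 of 6 also at an unadjusted p under 0.05), where 4.66% of all genes were called in either direction and 16.5% had an unadjusted p under 0.05. The difference between the genotypes in the change from 0 to 8 h was 0.21 for Oaz1 and was not called (limma, adjusted p = 0.999).

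These Oaz1 calls were not stable. Quantile normalization reduced the change at 16 h to 0.13 in both genotypes (limma, adjusted p = 0.37 in WT and 0.386 in KO), the highest values over 12 settings, whose lowest were 7.95e-04 and 0.00117. The WT call was lost without replicate 1 or 2 at 0 h or replicate 1 or 2 at 16 h, with adjusted p up to 0.0944, and without the 4 arrays that stood apart in sex-linked genes it was 0.27 (adjusted p = 0.129). The KO call was lost without replicate 3 at 0 h or replicate 1 or 2 at 16 h (adjusted p up to 0.0678). The WT step from 8 to 16 h was lost without replicate 2 or 3 at 8 h or replicate 1 or 2 at 16 h (adjusted p up to 0.155), and the KO step from 3 to 8 h without replicate 1 or 2 at 3 h or any 1 array at 8 h (adjusted p up to 0.169).

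Oaz2, a second antizyme, was lowest at 3 h but did not pass the test. On 1426763_at the WT values were 9.28, 9.27 and 9.45 at 0 h, 8.999, 8.85 and 9.04 at 3 h, 9.06, 9.39 and 9.42 at 8 h, and 9.43, 9.28 and 8.99 at 16 h. The KO values were 9.52, 9.38 and 9.33, then 8.99, 9.16 and 9.10, then 9.39, 9.54 and 9.49, then 9.47, 9.71 and 9.12. All 3 arrays at 3 h were below all 3 at 0 h in each genotype. The difference at 3 h was -0.37 in WT and -0.33 in KO (limma, SE 0.15; adjusted p = 0.0569 and 0.0976). From 3 to 8 h the KO step was 0.39, not called (adjusted p = 0.0748). The WT difference passed under 4 of 12 other settings, with adjusted p from 0.0339 to 0.638. The other probe sets differed: 1426764_at was at -0.35 in WT and -0.28 in KO at 3 h, not called, and the dimmest, 1442541_at, was at 0.30 in WT and at 0.98 in KO, where it was called higher (adjusted p = 0.032).

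Sat1, the acetyltransferase that starts polyamine breakdown, was not called in any comparison of the fit over the 8 groups. Its WT values on 1420502_at at the 4 times in order were 12.02, 12.13 and 12.22, then 12.16, 12.22 and 12.81, then 11.66, 12.30 and 12.45, then 11.66, 11.81 and 12.27. The KO values were 11.79, 12.09 and 12.34, then 11.95, 12.05 and 12.65, then 11.85, 12.02 and 12.33, then 11.49, 11.47 and 12.28. Replicate 3 was the highest in 8 of 8 groups, and the spread within groups was as wide as the differences between times. Part of that spread thus followed the replicate number. With replicate number as a fixed block, the KO change at 16 h was called (-0.33, limma's adjusted p = 0.0275). The change at 3 h was 0.27 in WT and 0.14 in KO, and at 16 h -0.21 and -0.33 (limma, SE 0.24; adjusted p = 0.417, 0.707, 0.557 and 0.327). The 95% interval in KO at 16 h ran from -0.82 to 0.17, so a fall of nearly 1 log2 unit was within it.

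KO and WT cells did not differ past the threshold in any of the 6 members. KO minus WT gave 0 of 6 calls at 0 h, where 0.0349% of all genes were called in either direction. There were also 0 of 6 at 3 h (0.0559% of all genes), at 8 h (0.0978%), at 16 h (0.615%) and averaged over the 4 times (1.21%). At an unadjusted p under 0.05 limma gave 0 of 6 members at 0, 3 and 16 h and in the average, beside 3.49%, 3.71%, 7.08% and 9.65% of all genes, and 1 of 6 at 8 h, beside 5.43%. That gene was Oaz1, with all 3 KO arrays above all 3 WT arrays at 8 h and a difference of 0.24 (SE 0.11, adjusted p = 0.882). Under the 12 other settings its adjusted p ranged from 0.441 to 1.

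The intervals say what size of difference these arrays could have missed, if each array is a separate sample. The fit took the 12 arrays of a genotype in that way, although arrays of the same replicate number deviated together. If a number marks a source shared only within a genotype, the intervals of the average would be too narrow. If it marks something shared by both genotypes, they could be too wide. Which of these holds was not tested. Averaged over the 4 times, KO minus WT was -0.09 for Odc1, with a 95% interval from -0.36 to 0.18, and 0.02 for Srm, from -0.20 to 0.24. It was 0.03 for Azin1 (-0.13 to 0.19) and -0.12 for Sat1 (-0.36 to 0.13). The intervals of the antizymes had the limits nearest to 0, at 0.10 for Oaz1 (-0.02 to 0.21, limma's adjusted p = 0.641) and 0.15 for Oaz2 (-0.01 to 0.30, adjusted p = 0.579). The largest single difference for Srm was at 0 h, 0.28 with an interval from -0.15 to 0.71, where KO replicate 3 (10.18) lay within the WT range. A p that misses the threshold does not show that the genotypes were alike.

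**Figure D4:**
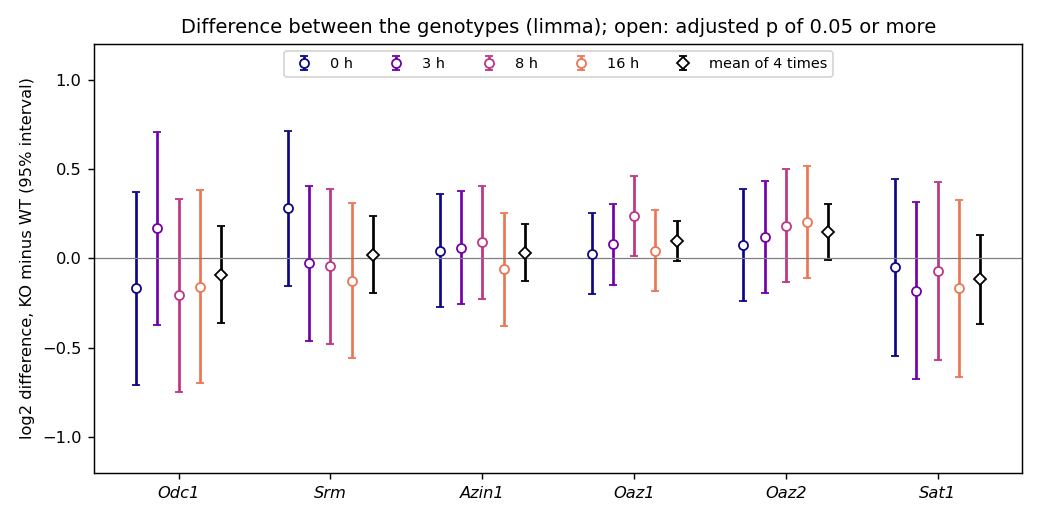
KO minus WT on the log2 scale (y axis) for each gene (x axis) at 0, 3, 8 and 16 h and for the mean of the 4 times (diamonds), as limma estimates with 95% intervals. All points are open because none passed an adjusted p under 0.05, and the interval of Oaz1 at 8 h is the only one that does not include 0.

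The changes from 0 h were compared between genotypes directly. The rise of Srm was smaller in KO by -0.31 at 3 h, -0.33 at 8 h and -0.40 at 16 h as estimated, each with an SE of 0.30, and none was called (limma, adjusted p of at least 0.999). For Odc1 the differences were 0.34, -0.04 and 0.01, with an SE of 0.37. Of the 6 members 0 were called, and 0 had an unadjusted p under 0.05, at 3 h (0% of all genes called), 8 h (0%) and 16 h (0.0210%). An unadjusted p under 0.05 was found for 2.30%, 3.11% and 4.36% of all genes at these times. The F-test over the 3 times together called 0 of 6, and 0 at an unadjusted p under 0.05, beside 0.0140% of all genes called and 2.80% with an unadjusted p under 0.05. These intervals were wide: that of Srm at 16 h ran from -1.02 to 0.21.

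Across the 8 group means the members fell into patterns, given here as a description since the groups share the time course. Odc1 and Srm had a Pearson r of 0.98, Azin1 had 0.54 with each of them, and Oaz2 had -0.82 with Azin1. Sat1 and Oaz1 had -0.95, although Sat1 spanned only 0.65 log2 units and Oaz1 0.59. Among 9123 or 9124 other genes whose group means spanned at least 1 log2 unit, the nearest to Odc1 were Exosc2, Il2ra and Smarcc1, each with r = 0.996. Exosc2 is a subunit of the RNA exosome and Il2ra the alpha chain of the interleukin receptor that marks activated lymphocytes. Nearest to Srm were Wdr12, a ribosome biogenesis factor (r = 1.00), Timm23, part of a mitochondrial import channel (0.999), and Ywhag (0.999). Nearest to Azin1 were Ube2g2 (0.991), Sec24a (0.989) and Slc20a1 (0.987). For Oaz1 they were Etnppl (0.979), Wwp1 (0.978) and Ap1s1 (0.977), for Oaz2 Tcta (0.983), Pigp (0.981) and Hdac9 (0.981), and for Sat1 Mybpc2 (0.982), Tapt1 (0.962) and Zbtb41 (0.960). These values come from a search over all those candidates with 8 points each.

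The rest of the pathway was read from a list of 40 genes that supply, use, transport or regulate polyamines, 31 of which were tested. In WT 13 of the 31 were called higher and 3 lower at 3 h, beside 17.0% and 21.3% of all genes. The WT counts were 10 and 2 at 8 h, beside 17.7% and 15.7%, and 12 and 6 at 16 h, beside 20.9% and 18.5%. In KO 11 were called higher and 4 lower at 3 h (16.6% and 21.7% of all genes), 12 and 3 at 8 h (17.3% and 14.4%), and 12 and 6 at 16 h (19.4% and 16.4%). The median change of the 31 in WT was 0.42, 0.35 and 0.41 at the 3 times. Between genotypes limma called 0 of 31 at any time or on average, and at an unadjusted p under 0.05 there were 1 at 0 h, 0 at 3 h, 1 at 8 h, 2 at 16 h and 1 in the average, beside 3.49%, 3.71%, 5.43%, 7.08% and 9.65% of all genes.

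Supply of arginine and ornithine was represented by 4 tested genes. Of these, 1 was called higher in WT at 3, 8 and 16 h, beside 17.0%, 17.7% and 20.9% of all genes. Slc7a1, the cationic amino acid transporter that carries arginine, rose by 2.90 in WT and 2.70 in KO at 3 h (limma, SE 0.14; adjusted p = 1.56e-12 and 3.22e-12). It then declined, to 1.14 above 0 h at 8 h and 0.81 at 16 h in WT. Oat, which links ornithine to glutamate, was at -0.37 in WT at 3 h and was not called at any time. Agmat passed the test as lower in KO at 16 h, but its probe set had group means of 3.37 to 5.77, near or below the filter levels of the arrays (5.38 to 6.42), so no size is given. Leaving out any of 14 single arrays ended that call. Arg2, Oaz3 and Sat2, with group means of 3.59 to 6.25, were as dim.

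The methionine cycle and salvage pathway, which regenerates the methionine that supplies aminopropyl groups, had 4 of 7 tested genes called higher in WT at 3 and 8 h and 5 of 7 at 16 h, beside 17.0%, 17.7% and 20.9% of all genes. In KO the counts were 3, 5 and 5, beside 16.6%, 17.3% and 19.4%. Mtap, which cleaves the methylthioadenosine left by polyamine synthesis, rose by 1.49 in WT and 1.45 in KO at 3 h (SE 0.14; adjusted p = 1.34e-08 and 2.08e-08). Ahcy, the hydrolase of adenosylhomocysteine, and Enoph1, a later salvage enzyme, were highest at 16 h, by 1.84 and 1.24 in WT. Mat2b, a regulatory subunit of methionine adenosyltransferase, was lower by -0.55 in KO at 3 h and by -0.39 in WT at 16 h (limma, adjusted p = 0.0041 and 0.0394). Scaling to the median ended both calls (-0.33 and -0.21), and the WT one was also lost without WT replicate 1 or 3 at 0 h or replicate 1 or 2 at 16 h.

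Hypusination uses spermidine to modify the translation factor eIF5A. Its 4 genes were all tested: 3 were called higher at 3 h and 4 at 8 and 16 h, in both genotypes, where 16.6% to 20.9% of all genes were called higher. Dohh, the hydroxylase that completes hypusine, rose by 1.19 in WT and 1.24 in KO at 3 h. Dhps, the deoxyhypusine synthase, rose by 0.64 in each, and these calls were lost without WT replicate 2 at 0 h or 3 at 3 h, and without KO replicate 2 at 0 h or 1 at 3 h. Eif5a itself rose by 0.46 at 3 h and 0.83 at 16 h in WT, and Eif5a2 by 1.18 at 8 h. Without WT replicate 1 at 3 h, the Eif5a rise at that time was 0.40 and not called.

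Of 3 polyamine transport genes tested, 2 rose and 1 fell at 3 h in both genotypes, where 17.0% of all genes were called higher and 21.3% lower in WT and 16.6% and 21.7% in KO. Slc3a2, the heavy chain of several amino acid exchangers, rose by 1.83 in WT, and Atp13a3, a pump linked to polyamine uptake, by 1.03. Atp13a2, the lysosomal polyamine exporter, was lower by -0.50 in WT and -0.42 in KO. Scaling to the median ended both of these calls (-0.28 and -0.20), and they were lost without WT replicate 1 at 3 h or 3 at 0 h, and without KO replicate 1 or 2 at 0 h or 1 or 3 at 3 h. Of the breakdown enzymes other than Sat1, Smox, which oxidises spermine, rose by 1.39 in WT at 3 h (limma, adjusted p = 0.0179) and was 0.67 higher in KO without being called. Its means at 0 h, 5.98 and 5.99, lay within the range of the arrays' filter levels. That WT call was lost when WT replicate 1 or 3 at 0 h or replicate 2 at 3 h was left out, and the difference between the genotypes was not called.

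The MYC network, which acts on Odc1, had 9 tested genes, with 2 called higher and 2 lower at 3 h in both genotypes, beside 17.0% and 21.3% of all genes in WT and 16.6% and 21.7% in KO. Myc rose by 1.76 in WT and 1.97 in KO at 3 h (SE 0.30; adjusted p = 3.6e-05 and 8.68e-06) and was then lower, at 0.75 and 0.81 above 0 h at 8 h, of which only the KO value was called. From 3 to 8 h it fell by 1.01 in WT and 1.16 in KO (adjusted p = 0.0224 and 0.00743). The KO value at 8 h leaned on the 0 h array that was low for Odc1: without KO replicate 1 at 0 h it was 0.28 and not called, and the call was also lost without any 1 KO array at 8 h. Mnt, a repressor that competes for MAX, rose by 1.05 in each genotype at 3 h, and averaging its probe sets ended both calls. Mxd4, another such repressor, was lower at 3 h by -2.99 in WT and -3.28 in KO, the largest change against 0 h of the 31 at that time. Mlx was lower by -0.88 and -0.81. At 16 h, 4 of 9 were called lower in both genotypes, beside 18.5% of all genes in WT and 16.4% in KO, among them Mxd1 (-1.34 in WT) and Mga (-0.88), a member that also pairs with MAX.

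**Figure D5:**
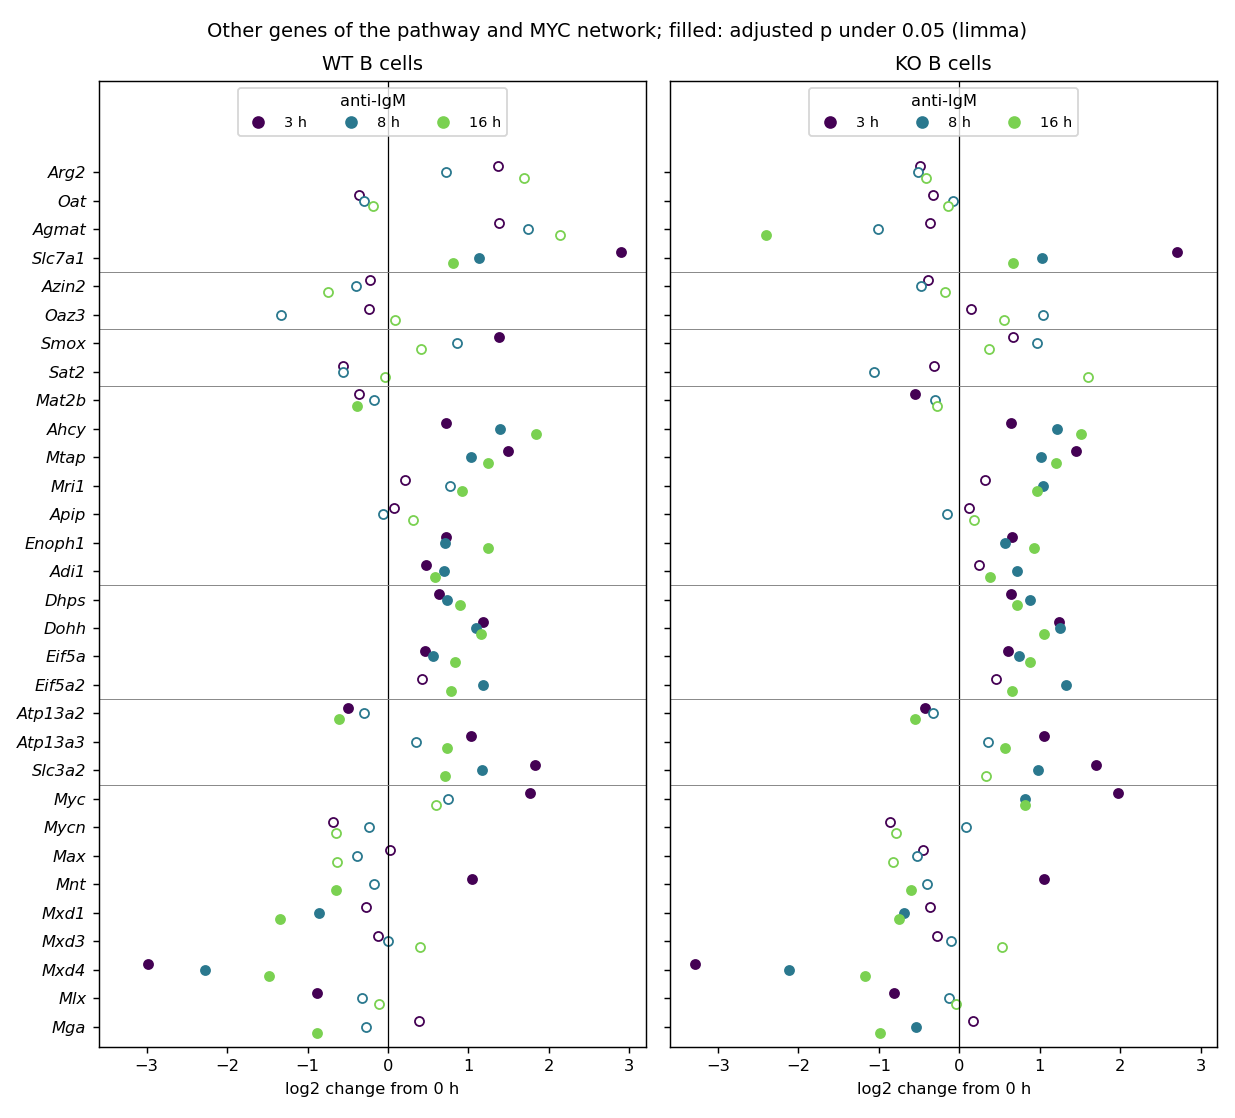
Change from 0 h on the log2 scale (x axis) of 31 other genes of polyamine metabolism and the MYC network (y axis), grouped by grey lines as supply, decarboxylase and antizyme relatives, breakdown, methionine cycle and salvage, hypusination, transport and MYC network, in WT (left) and KO (right). Filled points passed an adjusted p under 0.05; Slc7a1 and Myc are highest at 3 h, Ahcy at 16 h, and Mxd4 is lowest at 3 h.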

How the data were processed

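The deposited table holds log2 MAS5 signals: per the submitters' processing notes the authors used MAS5 (version not given in the sources used here), and on the linear scale 100% of values under 50 had 1 decimal. MAS5 scales each array to a fixed trimmed mean, so a change is relative to the rest of the array. Of 45101 probe sets, 64 controls were left out and 34945 had 1 symbol, updated through Entrez identifiers where these matched (34741). A probe set was kept above the 40th percentile of its array on at least 3 arrays, and the brightest of each gene was used. Comparisons used limma 3.58.1 (R 4.3.3) with 8 group means, 16 residual degrees of freedom and eBayes with trend (Benjamini-Hochberg over 14318 genes, called at an adjusted p under 0.05). SE and 95% intervals come from this fit. Precision is limited by having 3 arrays a group. No detection calls or scanner files were used, so background could not be taken from them. The fit was tested on simulated data.

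The members and gene lists were chosen with earlier results of these data known. Genes named are the members, Nfatc1, the listed pathway genes and, for each member, the 3 genes with the most similar group means. The labels call replicates biological without naming mice, so p-values measure the spread between these samples. Alternatives were quantile normalization, scaling to the median, other filters, averaged or single probe sets, replicate number as a fixed or random block, only the groups compared, eBayes without trend, set means, leaving out the arrays that stood apart, and each array in turn.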

Additional observations from a re-analysis of the deposited data

How the results depend on the processing

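Over 13 settings, 1302 comparisons of the 6 members were recomputed: 22 lost a call, 7 gained one, 0 called values reversed, and 54 changed sign while called in neither case. With each of the 24 arrays left out, 24 of 2592 lost a call and 4 gained one. The numbers of members called against 0 h stayed within 1.5 times the main count in all of these, a limit that lets 3 become 2 or 4. With 1 array left out they ran from 3 to 4 in WT at 3 h and from 2 to 3 at 16 h in both genotypes. The other counts against 0 h did not move with 1 array left out. Calls between genotypes stayed at 0. Steps between stimulated times were less firm. For KO 8 h minus 3 h, 2 members were called and 1 was called after scaling to the median, without trend, without a filter, with only the groups compared, or without the 2 arrays of highest background; 0 were called after quantile normalization, and 0 to 2 with single arrays left out. With the 60th-percentile filter and with the random block 3 were called, Oaz2 added (0.39, limma's adjusted p = 0.0446 and 0.0427). Over all genes the calls of this step ran from 2183 to 3831 over the settings, beside 2750 in the main fit. For WT 16 h minus 8 h the count fell from 1 to 0 without trend, with probe sets averaged, without a filter, with only the groups compared, after quantile normalization and without the 4 arrays apart in sex-linked genes, and was 0 to 1 with single arrays left out. For WT 8 h minus 3 h it fell from 1 to 0 without trend, with probe sets averaged and without those 4 arrays, and was 0 to 1 with single arrays left out. Over all genes these 2 WT steps had 451 to 2010 calls (beside 1110) and 1386 to 3327 calls (beside 2273). The cause of these changes was not tested. Mnt in KO at 16 h reversed from -0.60 to 0.37 when its probe sets were averaged, and the latter was not called. The labels do not say what a replicate number marks. Arrays of the same genotype and number deviated together with r from 0.02 to 0.37 over 36 pairs, of which 16 were above 0.1, and 23 of 24 arrays correlated best on average with their own number. Between the genotypes, arrays of the same number had a median r of 0.06 over 48 pairs, 11 of them above 0.1. Those of different numbers had a median of -0.03 over 96 pairs, 2 of them above 0.1. With replicate number as a block, 4 members were called in WT at 3 h (Oaz2 added, -0.37, limma's adjusted p = 0.0428) and 4 in KO at 16 h (Sat1 added, -0.33, adjusted p = 0.0275), and 0 between genotypes. Over all genes the block raised the calls averaged over the times from 173 to 425, means over the times compared 3 against 3 gave 8, and genotype and number as a random block 46. Calls at 16 h between genotypes ranged from 36 to 208 beside 88. The brightest probe set of every member lay at least 3.15 log2 units above the filter level of its own array (Oaz2, the nearest to it).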
